A study of Mus musculus with 2 samples.

Results

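The proteasome is the large protease that breaks down proteins tagged with ubiquitin. Its barrel-shaped core is built from alpha subunits, which gate the entrance, and beta subunits, some of which carry the cutting sites. A regulatory particle sits on the end of the core: a base ring of ATPases unfolds the substrate, and a lid removes its ubiquitin. Every cell needs the complex, and leukocytes and cells exposed to interferon can exchange the cutting subunits for immunoproteasome forms.

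The genes described here are all 49 rows of the authors' deposited table, out of 13916 protein-coding genes, whose symbols begin with Psma, Psmb, Psmc, Psmd, Psme, Psmf or Psmg and a number, with pseudogenes left out. They fell into 7 core alpha, 10 core beta, 7 ATPase, 14 lid and base and 11 regulator genes. The symbol rule also took in Psmc3ip, a partner of the meiotic recombinases, Psme3ip1, a protein that binds Psme3, and Psme2b, a retrogene of Psme2. Psma8, a form of the testis, and Psmb11, a form of the thymus, were not analysed here.

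The study compared the distal with the proximal part of organoids made from mouse embryonic limb mesenchymal cells of strain Slc:ICR, cultured with Fgf8b and Wnt3a for 48 h and frozen on day 2. By the labels both groups shared strain, medium and time, and the area lit set them apart. Photo-isolation chemistry reads RNA from the areas of a section that ultraviolet light has uncaged. The series has 1 library a side, in which 5 regions with barcodes of their own were pooled, and the 5 organoids came from 4 cultures, so an effect of the side and an effect of the library cannot be told apart.

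The values are the authors' mean normalized counts over all regions, the log2 change (positive where higher in distal) and its standard error, written after ±. Each side's level was computed here from that mean and change. Summed over regions, size factors read from the lowest means came to 2.93 in distal and 9.65 in proximal, so 3 counts correspond to a level of 1.02 in distal and 0.311 in proximal. All 10 limb mesenchyme markers had a mean of at least 1. Of these, Msx1 and Lhx2 were called higher in distal, and Pdgfra and Tbx5 higher in proximal. The summed level of the 7 muscle markers was 10.6 in distal and 105 in proximal, most of it Actc1, at 8.27 and 71.5. Of the muscle markers, 4 were called, all higher in proximal. The summed level of the 3 cartilage markers measured was 1021 and 647. Most of it was Sox9, at 842 and 522, the one of the 3 that was called. Col2a1 had a positive change, 0.57, and Acan a negative one, -1.57, in the authors' deposited table, and neither was called. The 3 epithelial markers in the table summed to 0.836 and 0.474, and the 3 of endothelium and blood to 1.48 and 0.618. Each of these 6 had a mean under 1, and no direction is read from them. Fewer cells of a type and less RNA per cell cannot be told apart in such samples, and the part of these markers in the results below was not tested.

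The authors' deposited table called a single proteasome gene (adjusted p under 0.05): Psmb5, which encodes the chymotrypsin-like cutting subunit, rose in distal. Over all genes, 0.977% were called, made up of 0.395% towards distal and 0.582% towards proximal. The 1 call among 49 genes is 2.04%. At an unadjusted p under 0.05 the authors' deposited table held 3 members, Psmb5, Psma2 and Psmb10, all with positive changes. That is 6.12% of the members, beside 6.07% of all genes, made up of 2.56% with positive and 3.51% with negative changes. The 3 genes are thus close to the share of all genes at that limit. Where the mean was 10 or more, the call rate was 3.03%, and 1 of 30 members (3.33%) was called.

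Promoter sequence is shown for Psmb5, for its fellow cutting subunit Psmb6, which was not called, and for Psma2, the core alpha gene with the largest change. All are taken from RefSeq on GRCm38.p6, and each run ends at the base before the RefSeq start. Capitals mark motif matches that lie wholly within a run. In the Psmb5 and Psmb6 runs they mark the antioxidant response element, the site of Nfe2l1, a factor known to raise proteasome genes when proteasome activity falls. In the Psma2 run they mark first an NRF1 site and then a CCAAT box. The NRF1 site is named for the nuclear respiratory factor Nrf1, a gene distinct from Nfe2l1.
Psmb5 (chr14:54617996-54618115, minus strand): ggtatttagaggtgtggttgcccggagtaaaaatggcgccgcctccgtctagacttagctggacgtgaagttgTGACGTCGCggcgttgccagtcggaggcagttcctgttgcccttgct
Psmb6 (chr11:70525237-70525356, plus strand): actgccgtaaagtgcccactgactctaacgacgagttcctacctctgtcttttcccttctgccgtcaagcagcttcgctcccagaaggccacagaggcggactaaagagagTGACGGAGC
Psma2 (chr13:14613113-14613241, plus strand): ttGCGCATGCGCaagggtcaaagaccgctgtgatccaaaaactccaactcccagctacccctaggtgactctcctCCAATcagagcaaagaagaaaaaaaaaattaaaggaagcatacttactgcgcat

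The motifs were searched on both strands in windows of 250 bases before to 50 bases after the start, which were found for 42 of the 49 genes. The antioxidant response element, TGACNNNGC, lay in the windows of 6 members (14.3%), beside 16.6% of the 10989 genes of the table with a window. These members were Psmb5, Psmb6, Psmc6, Psmd9, Psmd12 and Psme4. With the start counted as base 0, the match in Psmb5 ran from base -47 to base -39, and in Psmb6 from base -9 to base -1. The median log2 change was 0.17 for the members with this match and 0.12 for the 36 without it. A match is a description of letters, not of binding.

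The ETS site, CCGGAAG, was found in 16 members (38.1%) beside 18.2% of all genes with a window. Members with it had a median change of 0.09 and the 26 without it one of 0.15. The CCAAT box stood in 15 members (35.7%, beside 43.0% of genes) with medians of 0.08 with and 0.15 without it. The middle gene of those 15 is Psmb9, which had 3 counts. The NRF1 site, CATGCGC, stood in 5 members (11.9%, beside 7.43%): Psma2, Psmc2, Psmc5, Psmg1 and Psmg4. Their median change was 0.47 and that of the 37 others 0.12, a value set by Psma2 as the middle of 5 genes. At a mean of at least 10 the medians with and without a match were 0.05 and 0.11 for the CCAAT box, 0.05 and 0.10 for the ETS site, 0.26 and 0.09 for the NRF1 site (2 members with it) and 0.20 and 0.07 for the antioxidant response element. In Psma2 matches on both strands overlap in the printed capitals.

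**Figure D1:**
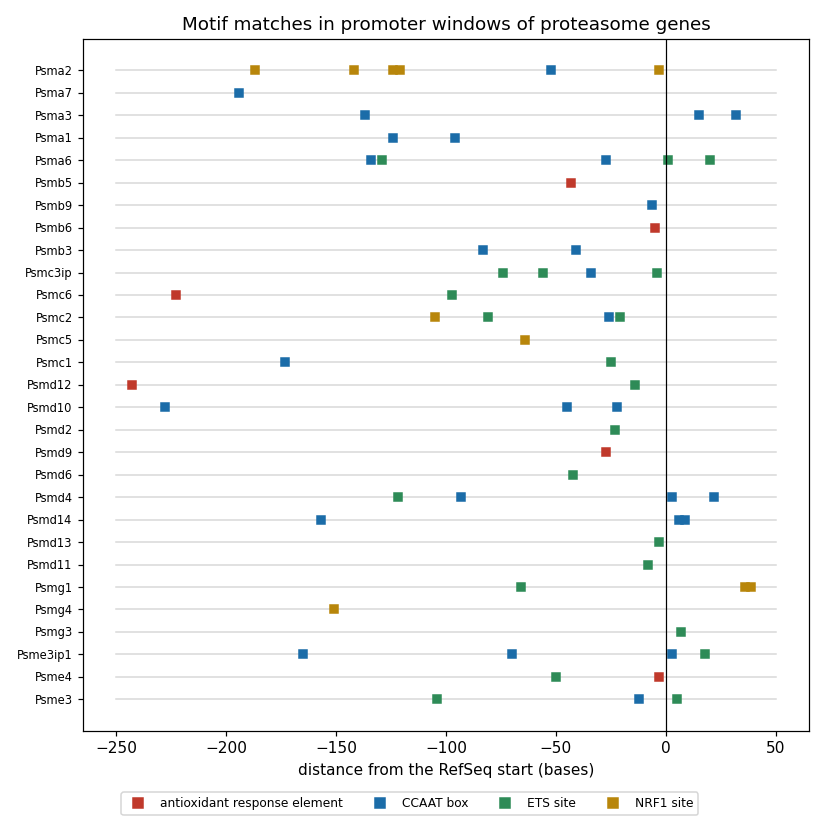
Position of each motif match (squares, coloured by motif) against the distance in bases from the RefSeq start for the proteasome genes with at least 1 match; genes with several starts are drawn on 1 line. ETS matches, found in 16 genes, and CCAAT matches, found in 15, are more frequent than response element matches, found in 6, and Psmb5 and Psmb6 each show a single red square before the start.

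Core alpha subunits form the outer rings of the core and gate the entrance to it. None of the 7 was called, and 6 had positive changes in the authors' deposited table, with a median of 0.14. Psma2 had a computed level of 65.2 in distal and 47.0 in proximal, or about 191 and 453 counts. The authors' deposited table gave a log2 change of 0.47 ± 0.19 (standard error), with p = 0.0151 before and p = 0.508 after adjustment. Distal was the higher side, but the difference did not pass the test across genes.

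The other alpha genes lay closer to equal levels. Psma1 stood at 55.4 in distal and 51.7 in proximal, with the smallest standard error of the 49 members, 0.17, in the authors' deposited table. Psma6 had the lowest change of the well covered alpha genes, with levels of 14.8 in distal and 17.4 in proximal and a change of -0.24 ± 0.33 in the authors' deposited table. Changes of Psma3, Psma5 and Psma7 in the authors' deposited table were 0.19, 0.09 and 0.23. Psma4 was thin, with a mean of 2.71 in the authors' deposited table, and the end of its transcript has a pseudogene copy at 98.3% identity.

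Core beta subunits form the inner rings. The cutting sites of most cells are on Psmb5 (chymotrypsin-like), Psmb6 (caspase-like) and Psmb7 (trypsin-like). Psmb5 (ENSMUSG00000022193, chr14:54614119-54618022 on GRCm38) had a computed level of 22.8 in distal and 10.6 in proximal, or about 66.7 and 103 counts. The log2 change in the authors' deposited table was 1.10 ± 0.29 (standard error), with a 95% interval of 0.52 to 1.67 and p = 0.0248 after adjustment. That is a 2.14-fold higher level in distal. Its change ranked 25 among the 3757 genes whose mean reached 10, of which 51 (1.36%) were called higher in distal.

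Psmb5 carries a caution. Within the last 300 bases of its transcript, runs of at least 200 bases match 2 other loci at 95% identity or more. The closest is a processed pseudogene on chromosome 7, at 99.6% over 229 bases. Reads from Psmb5 could therefore have been split between loci, and its values are uncertain. Copies of this kind were found for 9 of the 49 members (18.4%), beside 5.55% of all genes. At a mean of at least 10, the 5 members with a copy had a median change of 0.09 and the 25 without one a median of 0.06. All genes of that coverage had medians of 0.12 with a copy and -0.004 without. Of the 267 with a copy, 10 (3.75%) were called, 9 of them higher in distal and 1 in proximal. Of the 3490 without one, 104 (2.98%) were called, 42 higher in distal and 62 in proximal. The part of copies in the Psmb5 value was not tested.

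Psmb6, another cutting subunit of the core, had nearly equal levels, 26.6 in distal and 25.6 in proximal. Its change in the authors' deposited table was 0.06 with a standard error of 0.25, and its interval of -0.43 to 0.55 overlapped that of Psmb5 only at the edge. The difference between the 2 genes was not tested, since Psmb5 was singled out by its own value.

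Psmb7 was almost absent from the counts. The mean of 0.128 in the authors' deposited table corresponds to 1 set of region counts, 3 counts in 2 proximal regions and 0 counts in distal. No fold is given, since both sides were at or under 3 counts, and 0 distal counts still allow a level of up to 1.02. The end of Psmb7 shares 405 exon bases with Nek6, a kinase gene on the opposite strand, whose mean in the authors' deposited table was 25.97. In all, 4 members share exon bases with a gene on the opposite strand within 300 bases of their end. The other 3 were Psmc3, Psmc3ip and Psme1, with means of 13.3, 3.98 and 6.11 in the authors' deposited table. They share 215 exon bases with Slc39a13 (mean 1.29), 385 with Mlx (mean 1.54) and 14 with Emc9 (no value). These overlaps thus differ from that of Psmb7 in length or in the level of the other gene. Whether the overlap bears on the Psmb7 value was not tested, and the strand setting of the counting is not given in the sources used here.

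The immunoproteasome subunits were thin as a group. Psmb8 had 1 count, in a proximal region, and Psmb9 had 3 counts, in 2 proximal regions, with 0 distal counts for both. Their positive changes in the authors' deposited table, 1.19 and 0.08, therefore run against the side that held the counts, and no direction is read from them. Leukocyte markers were also scarce: 4 of the 6 were in the table, at means of 0.216 to 0.828, and their summed level was 1.54 in distal and 2.39 in proximal.

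Psmb10, the trypsin-like immunoproteasome subunit, had a mean of 1.29 and a change of 2.76 ± 1.31 in the authors' deposited table. The authors' deposited table lists p = 0.0354 before and p = 0.797 after adjustment. The mean matched 2 sets of region counts, 5 distal and 10 proximal or 7 distal and 3 proximal. The latter lies nearer to the deposited change. It gives a ratio of 7.69 with an exact interval of 1.76 to 46.1, for counting error only. That set was picked by the deposited change, so its interval is no separate check of that change. No ratio was computed for the other set. The largest change of all members thus rested on at most 15 counts.

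The remaining beta genes are structural. Psmb1 had the lowest change of them, with levels of 15.9 in distal and 20.6 in proximal and a change of -0.38 ± 0.30 in the authors' deposited table. Psmb2, Psmb3 and Psmb4 had changes in the authors' deposited table of 0.12, 0.01 and 0.15, none called. Over the 10 beta genes the median change was 0.14, and 9 were positive, among them the 3 genes at 3 counts or fewer whose sign carries no direction.

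**Figure D2:**
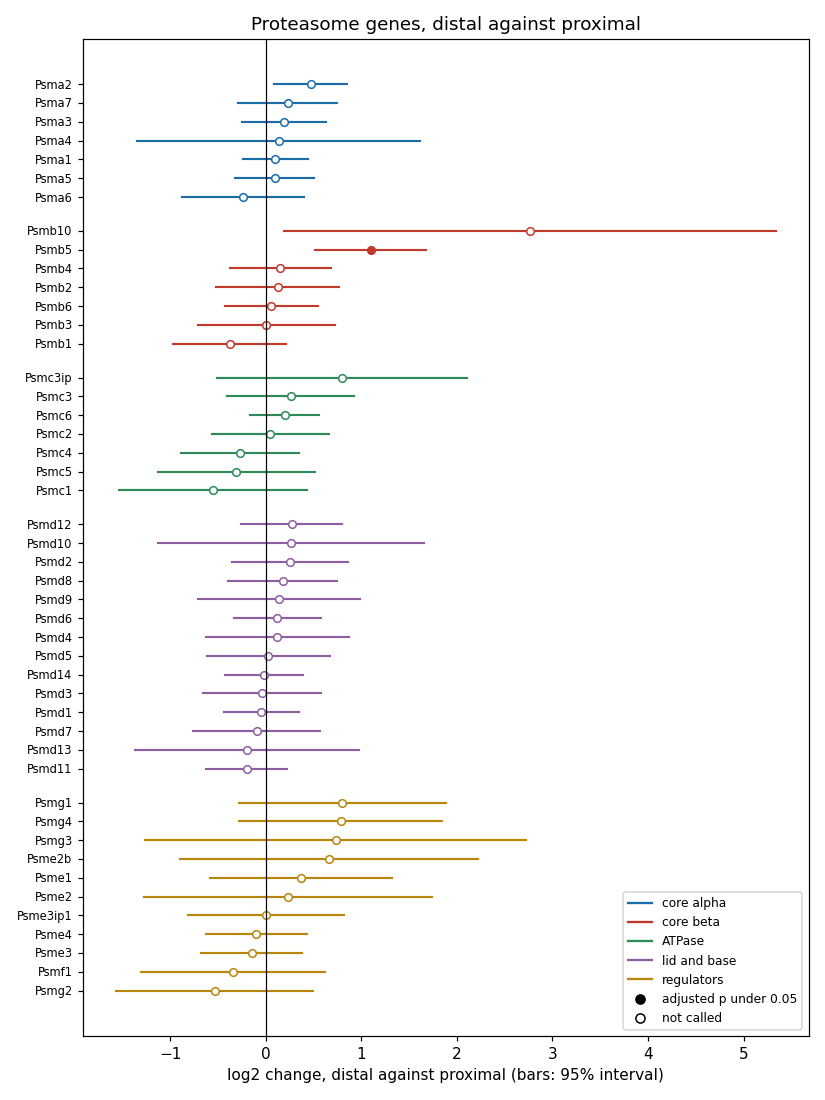
Log2 change of distal against proximal (point) with its 95% interval (bar) for 46 proteasome genes, grouped and coloured by class; Psmb7, Psmb8 and Psmb9, with 3 counts or fewer, are left out. The filled point is Psmb5 at 1.10, and the bars of the other genes cross 0 except those of Psma2 and Psmb10.

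The ATPases Psmc1 to Psmc6 form the ring that unfolds substrates and threads them into the core. None was called, and 3 of these 6 had positive and 3 negative changes in the authors' deposited table. Psmc3 had the highest change at a mean of at least 10, with levels of 14.6 in distal and 12.1 in proximal and a change of 0.26 ± 0.34 in the authors' deposited table. Psmc4 had the lowest at that coverage, with 17.1 and 20.6 and a change of -0.27 ± 0.31 in the authors' deposited table. Psmc6, the best covered ATPase, had levels of 53.1 and 46.4. Every interval of the ring genes crossed 0. Psmc3ip, which is no ATPase, had the highest change in the symbol class, 0.80 ± 0.67 in the authors' deposited table. With it the class median was 0.05, and without it -0.11.

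Over all members the lid and base genes had the narrowest range of changes of the 5 classes. At a mean of at least 10 the 3 regulator genes had a narrower one, from -0.15 to 0.002. All 14 lid and base genes had changes between -0.20 and 0.27 in the authors' deposited table, 8 positive and 6 negative. Their median was 0.07, and none was called. Psmd12, a lid subunit, had the highest change, with levels of 21.03 in distal and 17.4 in proximal. Its change was 0.27 ± 0.27 in the authors' deposited table. Psmd11, another lid subunit, had the lowest, with levels of 52.7 and 60.6 and a change of -0.20 ± 0.21 in the authors' deposited table. Psmd14, the enzyme of the lid that cuts ubiquitin off the substrate, had levels of 44.0 and 44.6. Psmd1 and Psmd2, the large scaffold subunits of the base, had changes in the authors' deposited table of -0.05 and 0.25, and the ubiquitin receptor Psmd4 had one of 0.12.

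Assembly chaperones join the subunits and then leave. Psmd5, Psmd9 and Psmd10 help build the base, and their changes in the authors' deposited table were 0.03, 0.14 and 0.26. Psmg1 and Psmg2 work as a pair on the alpha ring. Psmg1 had levels of 6.74 in distal and 3.87 in proximal, with a change of 0.80 ± 0.55 in the authors' deposited table. Psmg2 leaned the other way, at 4.90 and 7.11, with a change of -0.54 ± 0.52 in the authors' deposited table. The second pair, Psmg3 and Psmg4, had changes of 0.73 and 0.78 with standard errors of 1.02 and 0.54 in the authors' deposited table. The chaperones Psmg1 to Psmg4 had means of only 2.31 to 6.01, and none was called.

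Activators can cap the core in place of the usual regulatory particle. Psme1 and Psme2 form the interferon-inducible activator, and their levels were 6.88 and 2.97 in distal and 5.34 and 2.53 in proximal. Psme2 and its retrogene Psme2b are 99.0% identical over the last 300 bases of Psme2, so reads could be split between them and both values are uncertain. Psme3, the nuclear activator, had levels of 29.5 in distal and 32.7 in proximal and a change of -0.15 ± 0.27 in the authors' deposited table. Psme4, a large activator also found in the nucleus, had 18.4 and 19.7. Psmf1, known as an inhibitor of the purified core, had 5.74 and 7.31, with a change of -0.35 ± 0.49 in the authors' deposited table. Psme3ip1 had a change of 0.002 ± 0.41 in the authors' deposited table. It became -0.065 when changes were centred on the median of all genes. None of the 11 genes of this class was called.

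**Figure D3:**
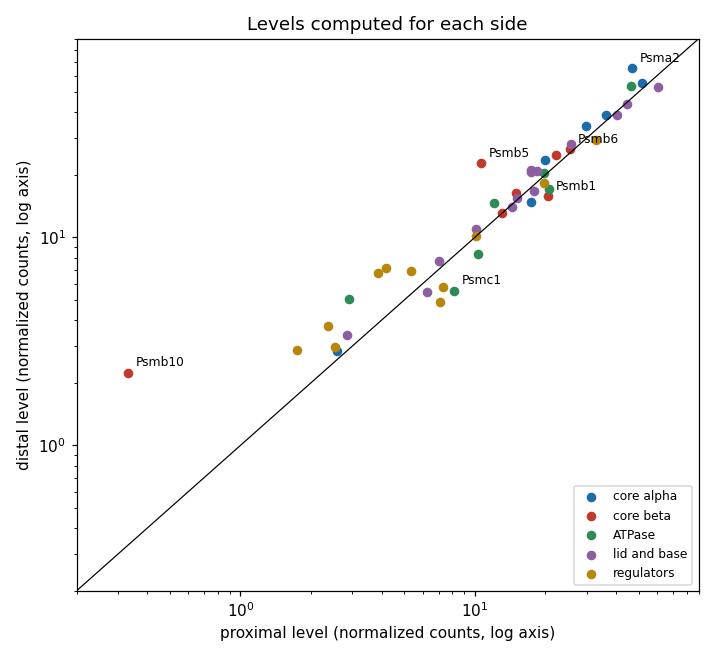
Computed distal level against computed proximal level (normalized counts, log axes) for the same 46 genes, coloured by class, with the line of equal levels. Psmb5 stands above the line at 22.8 against 10.6, and Psmb10 is the lowest point on the proximal axis, at 2.24 against 0.33.

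Coverage set what could be seen. Of the 49 members, 30 had a mean of at least 10, and 3 had a mean under 1. For those 30 the standard error ran from 0.17 to 0.41 with a median of 0.28 in the authors' deposited table, beside 0.30 for all genes of that coverage. The interval of the change lay wholly between -1 and 1 for 29 of the 30 (96.7%), all but Psmb5, and for 73.6% of the 3757 genes of that coverage. Changes within 0.5 of 0 were found for 29 of 30 (96.7%) beside 84.8%. Among the 19 members with lower means the interval was that narrow for 1, and for the other 18 it reached past -1 or 1. Over the 49 genes the rank correlation of standard error and mean was -0.99, a description across genes that share libraries.

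**Figure D4:**
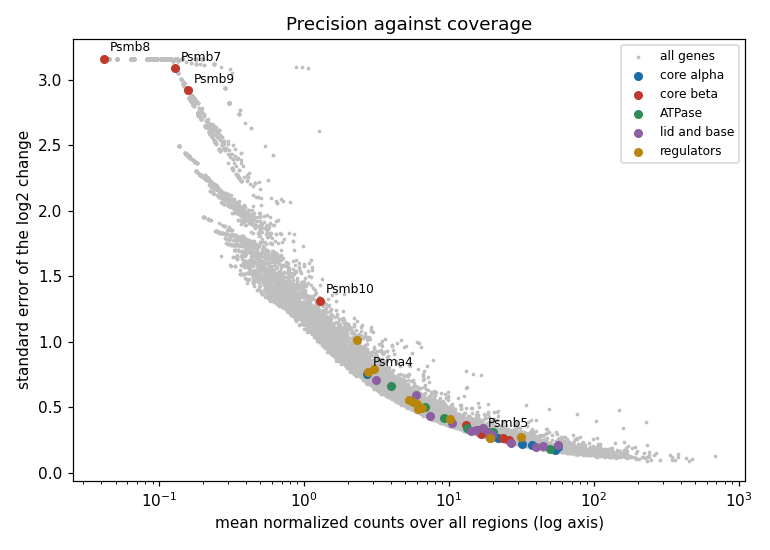
Standard error of the log2 change against mean normalized counts (log axis) for all genes (grey) and for the proteasome genes (coloured by class). The members follow the band of all genes, from 3.16 for Psmb8 with 1 count down to 0.17 for Psma1.

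Over all 49 members the median change in the authors' deposited table was 0.12, and 34 (69.4%) were positive, among them Psmb7, Psmb8 and Psmb9, whose sign carries no direction. Over all genes the median was 0.07 with 54.5% positive. At a mean of at least 10 the median was 0.08 for the members, 20 of 30 positive, and 0.005 for all genes, 50.6% positive. Genes are not replicates, so these are descriptions. The compared families at that coverage had medians of 0.07 for 72 cytosolic ribosomal protein genes, 0.08 for 50 respiratory chain and ATP synthase genes and 0.12 for 35 translation factors. Near-identical copies were found for 77.8% of these ribosomal genes and 16.7% of the members. The shares were 16.0% for the respiratory chain and ATP synthase genes and 20.0% for the translation factors. At that coverage calls numbered 2 (2.78%), 1 (2.00%) and 3 (8.57%) in these families, all higher in distal, beside 1.36% of all genes called in that direction.

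Genes that work with the proteasome were read from lists of their own. Among subunits and assembly factors with other symbols, Sem1, a lid subunit, had levels of 81.9 in distal and 84.9 in proximal. Pomp, which matures the core, had 13.9 and 20.8, with a change of -0.58 ± 0.32 and p = 0.991 after adjustment in the authors' deposited table. Adrm1, a ubiquitin receptor, had a mean of 2.45 in the authors' deposited table and has a near-identical copy. Of the 13 cofactors none was called, and 9 had negative changes, with a median of -0.08. They include the ubiquitin-cutting enzymes Usp14, with a change of -0.28, and Uchl5, with one of -0.006 in the authors' deposited table.

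Ubiquitin genes and the enzymes that activate ubiquitin gave no call among 5. Vcp, the ATPase that extracts proteins for the proteasome, had levels of 19.2 in distal and 11.2 in proximal, with a change of 0.77 ± 0.30, p = 0.0104 before and p = 0.414 after adjustment in the authors' deposited table. None of its list of 11 was called. Vcp was 1 of the 11 (9.09%) at an unadjusted p under 0.05, beside 6.07% of all genes.

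Nfe2l1, Nfe2l2, Nfe2l3, Mafg and Maff are transcription factors of the family that drives proteasome genes or their partners, and Keap1 is the adaptor that targets Nfe2l2 for breakdown. None of these 6 genes was called. Nfe2l1 had levels of 8.78 in distal and 10.5 in proximal, with a change of -0.26 ± 0.44 in the authors' deposited table. Nfe2l2 had 8.24 and 15.5, with a change of -0.91 ± 0.38, p = 0.0169 before and p = 0.541 after adjustment in the authors' deposited table. Nfe2l2 was 1 of the 6 (16.7%) at an unadjusted p under 0.05, beside 6.07% of all genes. Other protein complexes set beside the proteasome also had no call. The COP9 signalosome, related to the lid, had a median of 0.07 over 9 genes, eIF3 one of 0.17 over 12 and the TRiC chaperonin one of 0.18 over 9. The eIF3 genes also belong to the translation factors given above. Cops3 of the signalosome had a change of 0.70 ± 0.33, p = 0.0352 before and p = 0.797 after adjustment in the authors' deposited table. Cops3 was 1 of the 9 signalosome genes (11.1%) at an unadjusted p under 0.05.

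**Figure D5:**
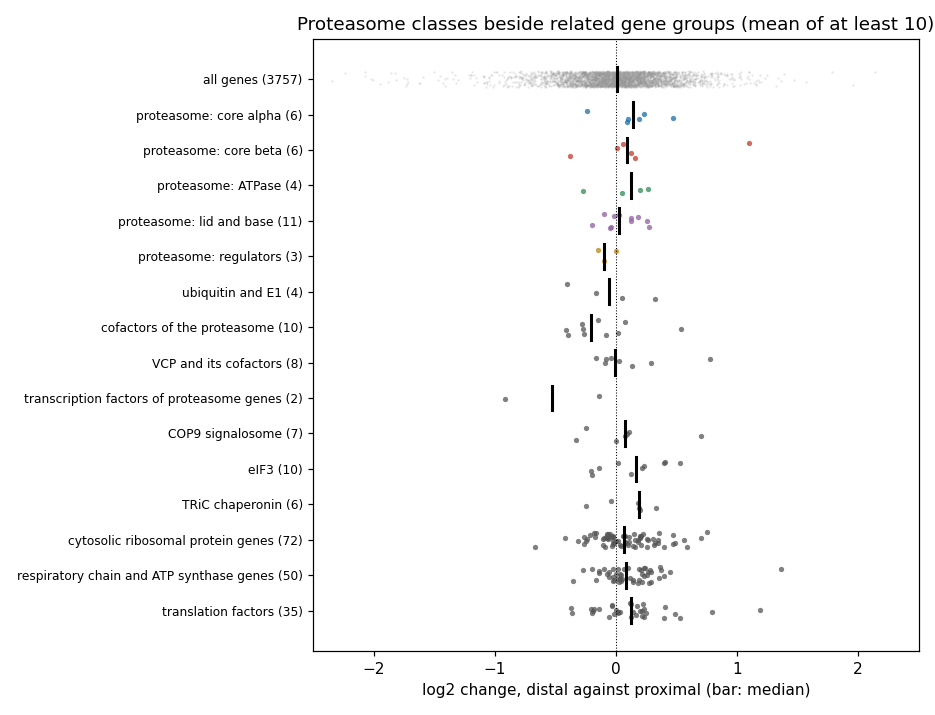
Log2 change of distal against proximal for genes with a mean of at least 10 (points, with vertical jitter) and their median (bar) in all genes, the proteasome classes and related groups, with the number of genes in brackets; 12 of all genes lie outside the drawn range. The proteasome medians lie between -0.10 and 0.14, and Psmb5 is the beta point at 1.10.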

How the data were processed

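Photo-isolation chemistry libraries from 1 distal and 1 proximal sample, each of 5 pooled regions, were analysed from 1 table of the authors' comparison. Per the file headers the columns have the names of a DESeq2 results table. The authors deposited the mean, a signal in normalized counts averaged over all regions. The log2 change, distal against proximal, and its standard error are the authors' fit. The deposited statistic is a score that differs by at most 1.91e-06 from the change over its error, and the p-value and adjusted p were deposited by the authors. The genome build was mm10 (GRCm38) per the submitters' processing notes; the aligner and counting are not given in the sources used here. No count test could be run, as regions have no values of their own in the table. The authors' test treats regions as replicates, and regions of a side share a library and partly a culture, so its p-values measure the spread between regions.

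The level of a side was computed so that both sides average to the mean and differ by the log2 change. It is approximate, since the authors' fit weights regions by depth, and it is not divided by transcript length, so levels of different genes are not ranked. Size factors were read from means repeated by at least 20 genes, which correspond to 1 count in 1 region. They correspond to 46991 to 118978 counts per distal region and 214774 to 345649 per proximal region. Region counts of thin genes are the sets of whole counts that match the mean within 2e-08. Intervals are the log2 change with 95% normal limits from its standard error, and calls have an adjusted p under 0.05. BLAST 2.17.0 was run against GENCODE M21 transcripts for near-identical copies (last 300 bases, at least 200 aligned, 95% identity); all 49 members matched that annotation.

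Members were singled out at an adjusted or unadjusted p under 0.05. The highest and lowest of each class at a mean of at least 10 were added. These genes are given with a change and its standard error, and Psmb5, Psma2 and Psmb10 with p-values as well. Cutting subunits, activators, chaperones, the inhibitor and genes with a mean under 1 are given with their values. Other members and overlapping genes were named after their values were seen. The members, lists and limits were chosen with earlier results of these data known. Alternatives covered the threshold, the adjustment, centring, coverage, copies and the kind of average. A list of conjugating enzymes is not reported here.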

Additional observations from a re-analysis of the deposited data

How the results depend on the processing

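The single call, Psmb5, held at a threshold of 0.1, with adjustment over all genes in the table or over those whose mean reached 10, and with either centring. Of all genes, 1.16% were called at 0.1, 0.999% with adjustment over all genes in the table and 1.03% or 0.970% with the centrings. Of the 3757 genes whose mean reached 10, 3.97% were called with adjustment over them, beside 1 of 30 members (3.33%). The Psmb5 call was lost at a threshold of 0.01, where 0 members were called beside 89 of all genes (0.640%). Without genes that have a near-identical copy, Psmb5 itself was left out, and 0 members were called beside 0.928% of the 13143 genes left. No member was called higher in proximal under any of these settings. The median change of the members, 0.12, was 0.076 at a mean of at least 10, 0.055 when centred on the median of all genes and 0.20 as an unweighted mean. The beta class had an unweighted mean of 0.53, which includes Psmb10 and genes at 3 counts or fewer. The median of the ATPase class was -0.11 without Psmc3ip, a setting chosen after seeing the data. The regulator median, 0.23, was -0.10 at a mean of at least 10, -0.050 without genes that have a copy and 0.039 as a weighted mean. The 11 genes singled out by p or as class extremes were read under the centrings only. These centrings subtract a median of 0.067 or -0.018 from every change. Psme3ip1 changed sign to -0.065 when centred on the median of all genes, and 21 of these 22 values kept sign and call. Only a change smaller than the shift could change sign. Apart from genes left out by construction, the cause was not tested.

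No paired analysis was possible because single regions have no values in the table, and for the same reason the fit was not repeated without a region. The distal side has the lower depth, with size factors that sum to 2.93 against 9.65.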
